A study of Mus musculus with 10 samples.

Results

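Long intergenic RNA probes that the array names by a genome position and a strand, and by no gene, are described here in mouse liver. Of the 56605 non-control probes on the array, 4450 have such a name, over 3230 positions. Members were chosen by the scanner software's call that a spot is well above background: a probe needed that call in at least 4 of the 5 mice of either group, which left 2036 probes (45.8%) at 1646 positions. The same rule kept 29074 of the 52155 other non-control probes (55.7%), so that 31110 probes entered the fit. Since the detection calls of both groups selected the members, their levels are a description.

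Long intergenic noncoding RNAs are transcripts that lie between protein-coding genes, are often spliced and polyadenylated, and are not translated into known proteins. Some guide chromatin regulators, act on neighbouring genes or bind proteins and microRNAs, but most have no assigned function, and their levels are usually lower than those of messenger RNAs. In liver, members of the class such as H19 and Neat1 have been studied in lipid metabolism, growth and fibrosis.

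Liver RNA of 10 adult male C57BL/6J mice was measured, 1 mouse per one-colour array. A 60% high-fat diet was given to all mice, over 4 months. The control group (5 mice) received no ethanol, and the ethanol group (5 mice) had it in the drinking water for the last 3 months, at 5 g/kg per day in the first week and 10 g/kg per day afterwards. The mice were bought at 7 weeks of age and entered the diet as 2 groups of 10, from which 5 per group were picked at random for arrays. No group on a standard diet is among these arrays, so the high-fat diet is common to every sample. Hereafter control mice 1 to 5 and ethanol mice 1 to 5 carry the replicate numbers of the labels.

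Signals are log2 values relative to the array's 75th percentile, so 0 stands for a probe as bright as that percentile, and differences are ethanol minus control on the log2 scale. Each probe binds with its own efficiency, so levels were compared between mice and not between probes. Between 55.5% and 59.1% of the spots of an array were well above background, and no spot was saturated. All 11 hepatocyte markers with a probe were well above background. Markers of stellate cells, the collagen-producing cells of the liver, were lower in the ethanol mean for 9 of 10, with a median difference of -0.35 and a smallest adjusted p of 0.223 by limma. Their summed linear level, in multiples of the 75th percentile, ranged from 97.3 to 133 in control mice and from 63.3 to 99.4 in ethanol mice. Of 5 bile duct markers, Krt7 and Epcam were not kept. The other 3 were all lower in the ethanol mean, with a median difference of -0.66 and a smallest adjusted p of 0.355 by limma. Their summed level ranged from 8.89 to 27.5 in control mice and from 3.22 to 16.2 in ethanol mice. The part of these cell types in the results on lincRNA probes was not tested. In whole liver, fewer cells of a type and less RNA per cell cannot be told apart.

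The arrays lay on 3 slides with up to 4 columns. Control mice 4 and 5 and ethanol mouse 4 were on slide 1, control mice 1 and 3 on slide 2, and control mouse 2 and ethanol mice 1, 2, 3 and 5 on slide 3. Column 4 held control mice 1, 4 and 5, column 1 held ethanol mice 2 and 3, and columns 2 and 3 held both groups. Group and column therefore overlapped only in the middle of the slides, and values within slides and columns stand beside the results below.

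Of the 2036 members, 1668 were detected (well above background) on all 10 arrays and 1825 in 4 or more mice of each group. Ethanol arrays alone brought 175 members past the rule and control arrays alone 36. Per mouse, 1918, 2097, 1911, 1990 and 2115 of the 4450 probes were well above background in control mice 1 to 5, and 2095, 2229, 2206, 2039 and 2123 in ethanol mice 1 to 5. Ethanol mice 2 and 3, on column 1, had the highest counts, and the ranges of the groups overlapped. In contrast, 1855 of the 4450 probes were above background on no array.

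Detection was alike on both strands, with 1019 of 2227 forward probes (45.8%) and 1016 of 2222 reverse probes (45.7%) kept. 1 further probe carried no strand letter. The named positions ran from 62 to 538251 bases, with a median of 10601 bases over the 4450 probes. With the probes cut into 4 classes of equal size by the length of their position, the kept share was 37.4% in the shortest class and 46.3%, 48.6% and 50.7% in the longer ones. By chromosome it ran from 37.4% on chromosome X to 55.9% on chromosome 14. These shares are descriptions, because neighbouring positions are not independent: 597 of the 1646 kept positions overlapped another kept position, and 944 lay within 100 kb of one.

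The members' mean signals ran from -5.25 to 8.69, with a median of -2.27 and quartiles of -3.58 and -0.34. The median over the other kept probes was -0.81. The spread between mice of 1 group (pooled SD) had a median of 0.28 for the members and 0.23 for the other kept probes.

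The brightest member was the forward probe at chr14:78924115-78938125 (mm9, as are all positions here). Its log2 signals were 8.59, 8.82, 8.87, 8.60 and 8.60 in control mice 1 to 5 and 8.73, 8.63, 8.67, 8.73 and 8.71 in ethanol mice 1 to 5. The control values enclosed the ethanol values, and the difference was -0.0030 ± 0.08 (SE). Next came the forward probe at chr6:83368261-83407280, with values of 8.23, 8.48, 8.51, 8.21 and 8.20 in control mice and 8.42, 8.42, 8.52, 8.44 and 8.48 in ethanol mice. Here too the groups overlapped, and the difference was 0.13 ± 0.09. The remaining 6 of the 8 brightest lay at chr12:73838608-73862621 (1 probe on each strand), chr6:116092274-116144199, chr2:31714946-31716972, chr4:94742359-94822969 and chrX:18744367-18853992, the last 4 on the forward strand. Their differences ran from 0.06 to 0.22, and none had an unadjusted p under 0.05. In all 8, the column 4 arrays, those of control mice 1, 4 and 5, had the 3 lowest values of the 10.

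No member differed between the groups after adjustment. With limma and Benjamini-Hochberg adjustment over all 31110 probes, 0 of 2036 members had an adjusted p under 0.05, against 3 of 31110 probes in all (0.00964%), and the smallest adjusted p of a member was 0.20. At an unadjusted p under 0.05, 338 members (16.6%) were higher with ethanol, against 8.57% of all probes, and 27 members (1.33%) were lower, against 4.28% of all probes. The 5 ethanol values lay all above the 5 control values in 33 members (1.62%, against 1.8% of all probes) and all below in 6 (0.295%, against 0.955%). Thus the share of non-overlapping members on the higher side was near the background, while the share with an unadjusted p under 0.05 was above it. The count of 338 depended on single mice. It was 189, 205 and 208 without control mice 1, 4 and 5. It was 219 and 195 without ethanol mice 2 and 3, and 576 without control mouse 2. The share of the other kept probes moved the same way in each of these fits, so the change was not particular to the members. Without control mouse 1 it was 5.13% (members 9.28%), and without control mouse 2 it was 11.6% (members 28.3%). The members' share stayed above that of the other probes in each.

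The ethanol mean was above the control mean in 1599 of 2036 members (78.5%), against 61.2% of all probes. The members' median difference was 0.16, with quartiles of 0.02 and 0.35, while it was 0.05 over the other kept probes, 0.02 over 20358 probes of protein-coding genes and 0.13 over 834 probes of named long noncoding RNA (lncRNA) genes. Over 7696 kept probes with neither a gene name nor a position here it was 0.10. The ethanol mean was higher in 71.0% of those probes and in 69.9% of the named lncRNA gene probes. The members' counts include those that passed the rule through 1 group. Among the 1668 members detected on every array, the ethanol mean was higher in 1289 (77.3%), and with the fit run on such probes alone the members' median was 0.14.

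The members' median difference was small, and it moved with the scaling between arrays, as did that of the other probes. Under quantile normalization the members' median was 0.11 and the ethanol mean was higher in 70.3% of them, and under scaling to the array's median these were 0.07 and 63.9%. The median of the other probes moved from 0.05 to 0.0012 and -0.04, and stayed below that of the members under each scaling. Under median scaling 197 members (9.68%) were higher and 58 (2.85%) lower at an unadjusted p under 0.05, against 3.62% and 7.93% of the other probes. Under quantile normalization 231 (11.3%) were higher and 42 (2.06%) lower, against 5.16% and 6.41%. Of the members called, 77.3% and 84.6% were higher under these scalings, in place of 92.6%.

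The difference also varied with the brightness of the probe. Of the 325 members with a mean signal under -4, 169 had passed the detection rule through ethanol arrays alone and 31 through control arrays alone, so the rule itself bears on their median difference of 0.30. It was 0.13 in the 125 members of this range detected in at least 4 mice of each group. With that requirement the median was 0.21 between -4 and -3 (404 members) and 0.17, 0.14, 0.10 and 0.10 in the brighter ranges, the last holding 188 members above 2. The highest median was thus not in the dimmest range. Probes of coding genes detected in both groups had medians between -0.0082 and 0.06 in the same ranges, below those of the members in each. Those of named lncRNA genes had 0.16, 0.15, 0.12, 0.12, 0.05 and 0.09 from the dimmest range to the brightest. They were thus above the members in the dimmest range and below them in the others.

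**Figure D1:**
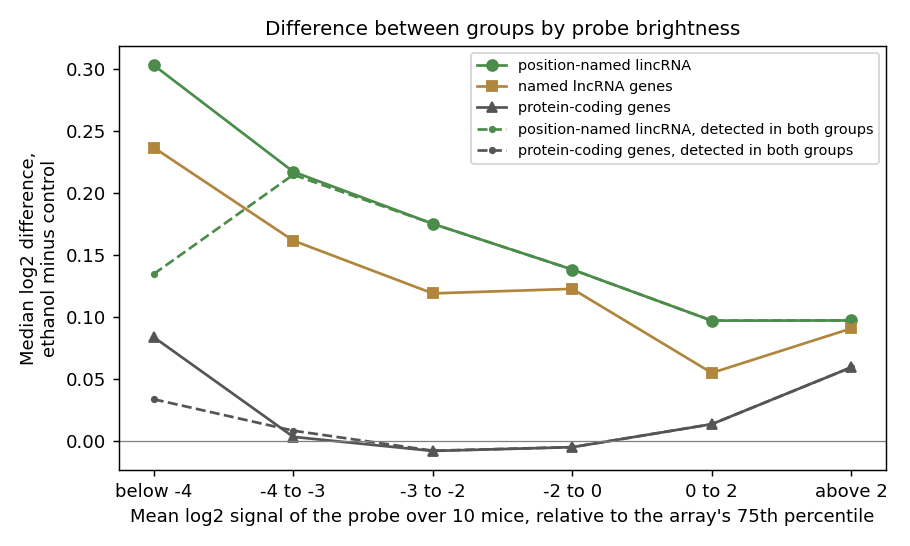
Median log2 difference (ethanol minus control, y axis) of kept probes in 6 ranges of mean log2 signal (x axis), for position-named lincRNA probes, probes of named lncRNA genes and probes of protein-coding genes; each point is 1 median over probes, with no error drawn, and dashed lines hold only probes detected in at least 4 mice of each group. In the dimmest range the lincRNA median is 0.30 over all kept probes and 0.13 over those detected in both groups, and the lincRNA points lie above the coding points in each range.

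Across the 10 mice the members' signals were ordered by the slide and the column of the array as well as by group. After each member was centred on its mean over the mice, the median over the 2036 members was -0.19, 0.09, -0.0036, -0.16 and -0.10 in control mice 1 to 5 and 0.10, 0.13, 0.16, -0.0081 and 0.08 in ethanol mice 1 to 5. The 3 lowest mice were control mice 1, 4 and 5, all on column 4, and the 2 highest were ethanol mice 2 and 3, both on column 1. By slide, the 5 mice of slide 3 (control mouse 2 and ethanol mice 1, 2, 3 and 5) were the 5 highest, between 0.08 and 0.16. The mice of slides 1 and 2 lay between -0.19 and -0.0036. Where a column held both groups the values overlapped: on column 2 control mouse 2 was at 0.09 and ethanol mouse 5 at 0.08, and on column 3 control mouse 3 lay at -0.0036, between ethanol mice 4 and 1 at -0.0081 and 0.10. Both column 2 mice were on slide 3, and of the column 3 mice only ethanol mouse 1 was on that slide. The mean over the 5 control mice was -0.07 ± 0.11 (SD), and over the 5 ethanol mice 0.09 ± 0.07 (SD). The 75th percentile that scales each array was also highest on column 4, between 379 and 383 intensity units, against 277 to 343 on the other columns.

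**Figure D2:**
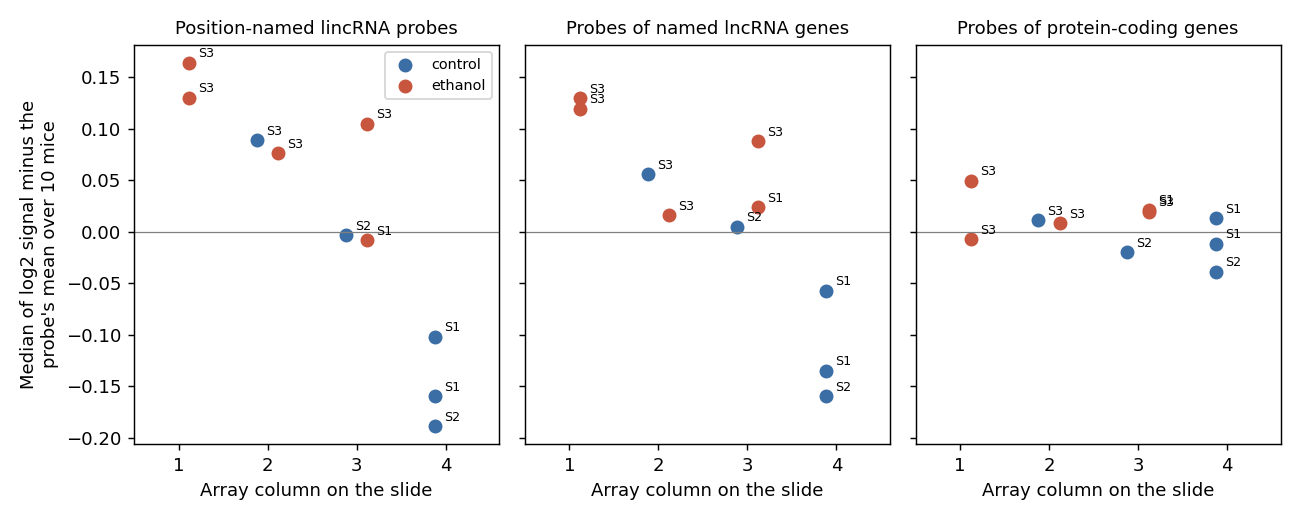
Median over probes of the log2 signal minus the probe's mean over the 10 mice (y axis), 1 point per mouse, by the column of its array on the slide (x axis), for position-named lincRNA probes, named lncRNA genes and coding genes; S1 to S3 give the slide. In the first panel the 3 control mice of column 4 lie between -0.19 and -0.10 and the 2 ethanol mice of column 1 at 0.13 and 0.16, while the coding medians stay within 0.05 of 0. The 5 mice of slide 3 are the highest in that panel.

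Member by member, the 3 arrays of column 4 had the 3 lowest values in 320 of 2036 members (15.7%), and in 5.52% of the coding probes. The 2 arrays of column 1 had the 2 highest values in 310 members (15.2%), and in 11.4% of the coding probes. Named lncRNA genes gave 10.1% and 14.0%. The coding medians per mouse stayed between -0.04 and 0.05.

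In most fits within slides or columns the difference between the groups was smaller. Slide as a fixed block gave the members a median difference of 0.06, and slide as a random block, which also uses the difference between slides, one of 0.17. It was 0.13 within slide 1 (control mice 4 and 5, ethanol mouse 4) and 0.0093 within slide 3 (control mouse 2, 4 ethanol mice), where the ethanol mean was higher in 51.6% of members. With the array column as a covariate the members' median was 0.06, against 0.04 over the other probes. At an unadjusted p under 0.05 in that fit, 53 members (2.60%) were higher, against 3.46% of the other probes, and 25 (1.23%) lower, against 2.16%. Leaving out the 3 arrays of column 4, an alternative chosen after seeing the data, gave a median of 0.06, with 68 members (3.34%) higher, against 3.50% of the other probes, and 26 (1.28%) lower, against 2.32%. In both fits the share of higher members was not above that of the other probes. With columns 2 and 3 alone, also chosen afterwards, the members' median was 0.01, and within column 3 alone it was 0.04. Over the other probes the median was 0.03 in both, and also without column 4. Each single-slide or single-column fit had 1 mouse in 1 group, so that mouse was taken to vary like the others. Ethanol and array column cannot be told apart on columns 1 and 4, which held 5 of the 10 arrays. Ethanol and slide were also only partly separable, since slide 3 held 4 of the 5 ethanol mice and slide 2 held control mice only.

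The members named next are those with the smallest p among the 33 and 6 whose groups did not overlap; because they were chosen for that, their values are given as a description. None had an adjusted p under 0.05. As their groups do not overlap, a fit on fewer mice must give the same sign, and only sizes are compared. Under normexp background correction, run with an offset of 50 intensity units, 11 of the 14 differences shrank by more than 1.5 times.

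Of the members higher with ethanol, the reverse probe at chr8:72663625-72673010 had the smallest p. Control mice 1 to 5 gave 2.89, 2.65, 2.53, 3.02 and 2.60, and ethanol mice 1 to 5 gave 3.30, 3.37, 3.93, 3.28 and 3.62. All ethanol values were above the highest control value, and ethanol mouse 3 was highest. The difference was 0.76 ± 0.15 (SE), 1.69-fold, with an adjusted p of 0.20 by limma. It was 0.69 with the array column as a covariate, 0.47 within slide 1 and 0.90 within slide 3. The 2 forward probes of this position differed by -0.03 ± 0.11 and 0.12 ± 0.11, and their groups overlapped.

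At chr13:65610375-65634500 the reverse probe read -4.22, -3.60, -3.69, -4.02 and -4.09 in control mice and -3.20, -3.22, -3.11, -3.48 and -3.33 in ethanol mice. Every ethanol mouse was higher, with the 3 control mice of column 4 lowest of all. The difference was 0.66 ± 0.13 (adjusted p of 0.20 by limma) and 0.42 with the column as a covariate. The forward probe of the same position went the other way without passing any threshold, at -0.24 ± 0.17.

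The forward probe at chr9:121207045-121269020 gave -3.23, -2.96, -3.09, -3.03 and -3.13 in control mice and -2.77, -2.74, -2.38, -2.64 and -2.44 in ethanol mice. The groups did not overlap, and the difference was 0.50 ± 0.10 (adjusted p of 0.20 by limma). The reverse probe here was above background on no array.

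A short position on chromosome 7, chr7:80762708-80763274 (567 bases), was read by a reverse probe at -4.22, -4.28, -4.15, -4.51 and -4.49 in control mice and -4.01, -3.56, -3.33, -3.59 and -3.90 in ethanol mice. All ethanol values were higher, and the difference was 0.65 ± 0.14 (adjusted p of 0.212 by limma). The nearest kept neighbour, a forward probe 314 bases away at chr7:80763588-80764230, differed by 0.52 ± 0.24 (unadjusted p = 0.0572 by limma).

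The other 2 probes with a narrow spread were on the forward strand. At chr7:114386535-114443910 the control mice gave -1.94, -2.06, -1.91, -2.27 and -1.93 and the ethanol mice -1.78, -1.65, -1.49, -1.47 and -1.42. At chr8:108153471-108159346 the control mice gave -0.90, -1.12, -0.89, -0.90 and -0.92 and the ethanol mice -0.70, -0.53, -0.32, -0.32 and -0.65. The groups were apart at both positions. The differences were 0.46 ± 0.10 and 0.44 ± 0.10, and with the column as a covariate they stayed at 0.43 and 0.47.

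At chr5:35975265-35982561 the forward probe was the brighter kind of member, at 1.25, 1.76, 1.88, 1.57 and 1.31 in control mice and 2.07, 2.20, 2.63, 2.12 and 2.04 in ethanol mice. All ethanol mice were higher, and ethanol mouse 3 was highest. The difference of 0.66 ± 0.15 was 0.39 with the column as a covariate and 0.22 within column 3. The reverse probe differed by 0.20 ± 0.11, with overlapping groups.

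The last of the 8, the reverse probe at chr1:121201987-121223410, was not well above background on any control array and was so on 4 ethanol arrays. It passed the detection rule through ethanol arrays alone, so a higher ethanol level follows from the rule. Its signals were -4.67, -5.08, -5.10, -5.89 and -5.20 in control mice and -4.12, -3.96, -4.64, -4.48 and -4.37 in ethanol mice. The highest control value, in mouse 1, was just under the lowest ethanol value, in mouse 3. Because the control level is only a bound, the ethanol level was at least 1.45-fold higher, taking as the control level the higher, on each array, of the probe's own signal and the dimmest signal well above background.

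Among the members lower with ethanol, the forward probe at chr9:118291593-118324230 had the smallest p. It read -3.09, -2.77, -2.56, -2.71 and -2.86 in control mice and -3.92, -3.32, -3.25, -3.37 and -3.28 in ethanol mice. All ethanol values were lower, ethanol mouse 1 most of all. The difference was -0.63 ± 0.15 (adjusted p of 0.239 by limma) and -0.82 with the column as a covariate. The reverse probe of this position read -3.46, -1.71, -3.56, -3.24 and -2.85 in control mice and -1.49, -2.15, -2.15, -2.71 and -2.24 in ethanol mice. Control mouse 2 lay among the ethanol mice there, and the difference of 0.82 ± 0.35 became -0.29 within slide 3.

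The reverse probe at chrX:12811766-12813409 was above background on all 5 control arrays and on 1 ethanol array. It passed the detection rule through control arrays alone, so a lower ethanol level follows from the rule. Its signals were -3.75, -3.83, -4.15, -4.0 and -3.88 in control mice and -4.47, -6.04, -4.60, -4.47 and -5.08 in ethanol mice. The groups did not overlap, and ethanol mouse 2 was lowest. The difference was -1.01 ± 0.28 (adjusted p of 0.268 by limma), and -0.73 without ethanol mouse 2, the smallest of its values with 1 mouse left out. It was -0.21 under normexp, -0.67 with the column as a covariate and -0.32 within column 3.

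A forward probe at chr8:122712014-122732520 gave -2.74, -2.60, -2.64, -2.40 and -2.57 in control mice and -3.01, -2.88, -2.91, -2.77 and -2.93 in ethanol mice. All ethanol values were lower by a narrow margin, and the difference was -0.31 ± 0.08 (adjusted p of 0.270 by limma). It was -0.28 within slide 1 and -0.33 within slide 3.

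The 2 probes on chromosome 13 among the lower members had small differences and very narrow groups. At chr13:76326228-76332632, forward strand, control mice gave -0.75, -0.67, -0.67, -0.70 and -0.64 and ethanol mice -0.83, -0.79, -0.99, -0.79 and -0.80. At chr13:98038568-98068079, reverse strand, control mice gave -0.47, -0.44, -0.45, -0.44 and -0.46 and ethanol mice -0.52, -0.54, -0.58, -0.60 and -0.50. Neither pair of groups overlapped. Their differences of -0.15 ± 0.07 and -0.09 ± 0.06 had unadjusted p-values of 0.0535 and 0.163 by limma, which pools the spread of all probes.

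**Figure D3:**
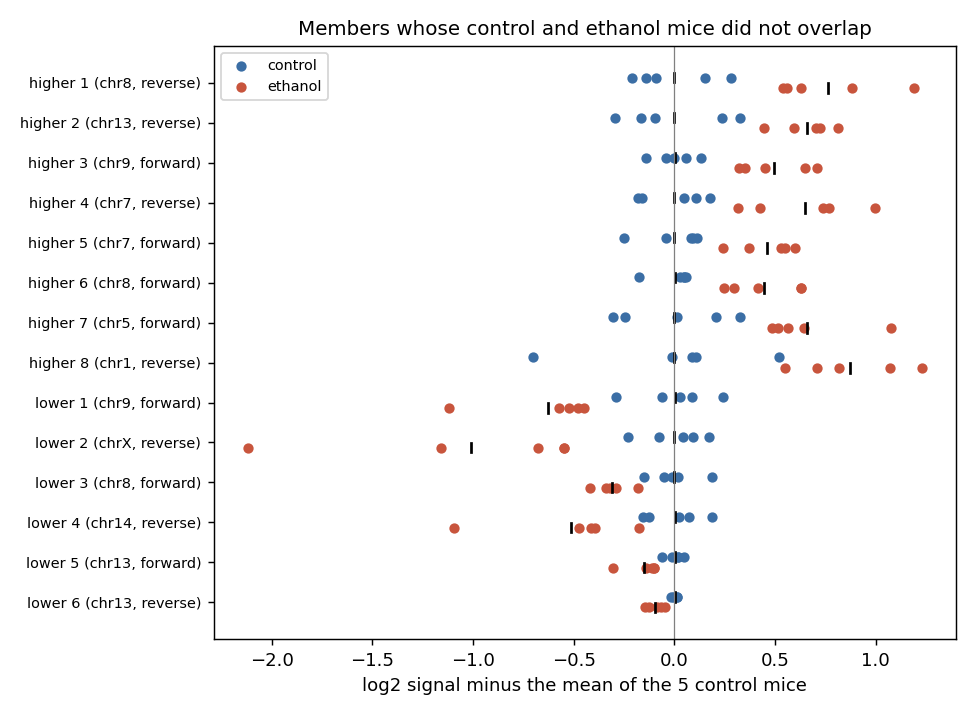
Log2 signal of each mouse minus the mean of the 5 control mice (x axis) for the 8 higher and 6 lower members, 1 line per probe in order of p, with chromosome and strand; points are mice and black bars are group means. Points of the groups do not overlap on any line, and higher 8 was not well above background in any control mouse. Of the other lines, the ethanol means run from -1.01 to 0.76.

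At chr14:55671783-55680316 the strands went opposite ways. The reverse probe read -2.47, -2.81, -2.58, -2.78 and -2.63 in control mice and -3.75, -3.07, -2.83, -3.05 and -3.13 in ethanol mice. All ethanol mice were lower, by a narrow margin at the closest pair, and the difference was -0.51 ± 0.16 (adjusted p of 0.296 by limma). The forward probe was not well above background in any control mouse, with signals of -6.30, -5.07, -4.80, -5.24 and -4.96, and was above it in 4 ethanol mice, with -3.59, -2.49, -1.79, -4.26 and -4.86. Ethanol mouse 5, at -4.86, was below control mouse 3, so the groups overlapped. The forward level was at least 2.71-fold higher with ethanol (adjusted p of 0.280 by limma). It passed the detection rule through ethanol arrays alone, so a higher ethanol level was fixed by the rule. A kept forward probe inside this position, at chr14:55672705-55675212, differed by 0.36 ± 0.14, and a second reverse probe of the position was above background on no array.

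In all, 12 members (0.589%) were not well above background on any control array, against 59 of all 31110 kept probes (0.190%), and 0 members on any ethanol array, against 24 kept probes (0.0771%). As these 12 passed the rule through ethanol arrays alone, they had to be higher with ethanol, and the values are a description. Their lower bounds ran from 1.20-fold to 2.71-fold higher with ethanol. A bound covers the detection limit and not the variation between mice. Besides the 2 already described, those with the smallest p were 2 reverse probes. That at chr6:50339188-50409363 was above background on all 5 ethanol arrays and at least 1.56-fold higher. That at chrX:121032646-121038407 was at least 1.20-fold higher, but its groups overlapped, with ethanol mouse 4 (-5.69) below control mouse 2 (-5.07). Its difference of 1.13 was 0.26 within slide 1 and 0.23 within column 3. The chr6 probe read -4.47, -4.43, -5.12, -5.16 and -4.76 in control mice and -3.84, -4.09, -4.39, -4.36 and -3.45 in ethanol mice. All its ethanol values were higher. A bound of 1.68-fold was found for the reverse probe at chr17:9898206-9919226, where the ethanol values ran from -5.30 to -2.66 and overlapped the control values.

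Both strands were kept at 270 positions. The 2 strands were both higher with ethanol at 157, both lower at 13 and opposite at 100, and the median gap between their differences was 0.22. Pearson's r between forward and reverse differences was -0.0080 over the 270 pairs, across probes that share the 10 arrays. Taken singly, 211 of the 270 forward probes (78.1%) and 203 of the reverse probes (75.2%) were higher, near the 78.5% of all members. At an unadjusted p under 0.05, 34 forward (12.6%) and 53 reverse probes (19.6%) were called in either direction. By direction, 16.6% of all members were higher and 1.33% lower at this threshold, against 8.57% and 4.28% of all 31110 probes. Both strands were called the same way at 8 positions and opposite ways at 3. Probes of the same strand were no more alike by this measure: over 96 pairs of kept probes on 1 strand of a position, r between the dimmer and the brighter was -0.06, with 65 pairs of one sign and 31 of mixed sign. Their median gap of 0.14 was narrower than that between strands.

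**Figure D4:**
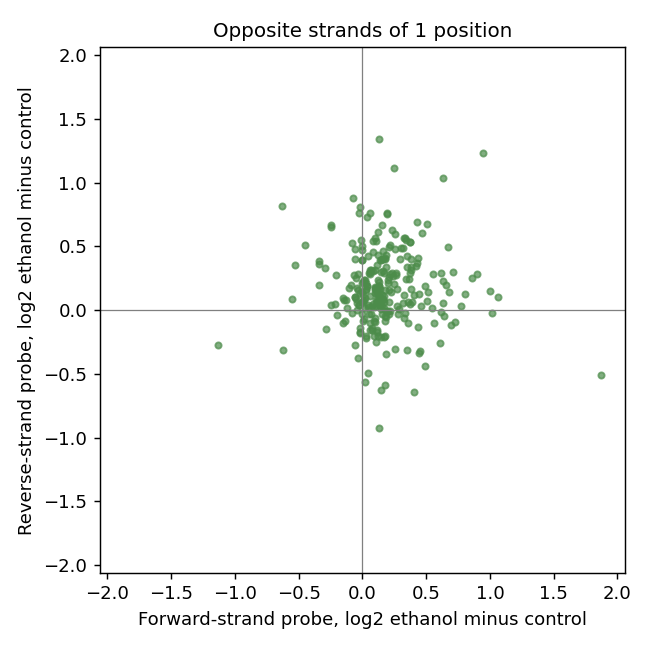
Log2 difference (ethanol minus control) of the forward probe (x axis) and the reverse probe (y axis) at the 270 positions with both strands kept, 1 point per position. The points centre above 0 on both axes without lying along a diagonal (r of -0.0080), and the point at the far right is the chromosome 14 position whose forward probe was not well above background in any control mouse.

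The 6 positions with the brightest dimmer strand show the same in detail. At chr12:73838608-73862621 a forward and a reverse probe were both among the 8 brightest, and differed by 0.17 ± 0.15 and 0.06 ± 0.10. A second forward probe there was near background (-5.32 to -2.84 over the mice) and differed by 0.62 ± 0.36, so probes of 1 strand and position can read very different signals. At chr5:34696192-34722842 the 2 forward probes differed by 0.10 ± 0.15 and 0.0061 ± 0.10 and the reverse probe by -0.09 ± 0.11. At chr16:8738782-8830148 the forward and reverse differences were 0.10 ± 0.14 and -0.06 ± 0.16. All of these groups overlapped.

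At chr14:33923944-34003394 the strands were unlike each other. The forward probe read 4.33, 4.19, 3.83, 4.22 and 4.27 in control mice and 4.40, 3.83, 3.86, 4.09 and 4.57 in ethanol mice, with a difference of -0.02 ± 0.16. The reverse probe read 1.45, 3.19, 1.78, 2.07 and 2.01 in control mice and 3.27, 2.88, 3.08, 2.36 and 2.96 in ethanol mice. On the reverse strand control mouse 2 stood with the ethanol mice and the other control mice below all of them. Its difference was 0.81 ± 0.30 (unadjusted p = 0.0204 and adjusted p = 0.339 by limma), 0.38 with the column as a covariate and -0.15 within slide 3.

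Nearly the same order of mice appeared at chr14:55433382-55452757. The forward probe there read 1.21, 2.94, 1.53, 1.87 and 1.66 in control mice and 2.71, 2.64, 2.61, 1.91 and 2.54 in ethanol mice, again with control mouse 2 apart from the other control mice. Its difference was 0.64 ± 0.29 and turned to -0.31 within slide 3, while its 2 reverse probes differed by 0.02 ± 0.12 and -0.05 ± 0.11. At chr1:95871175-95886625 the 2 forward probes differed by 0.16 ± 0.09 and 0.39 ± 0.16 and the reverse probe by 0.09 ± 0.13, all with overlapping groups.

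Some members varied widely between the mice of 1 group. The largest pooled SD, 1.57, was that of the reverse probe at chr8:49866197-49866841 (645 bases). Its signals were -2.39, -1.44, 1.76, -0.78 and -1.35 in control mice and -0.51, 1.87, 3.03, 0.41 and -0.59 in ethanol mice. Control mouse 3 and ethanol mice 2 and 3 were high and the groups overlapped, and the difference of 1.68 ± 0.87 had an unadjusted p of 0.0813 by limma. The covariate for the column brought it to 0.44, and within column 3 it was -1.81.

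The reverse probe at chr10:84010161-84016083 was well above background on 4 control arrays and 1 ethanol array. It passed the detection rule through control arrays alone, so the rule bears on its lower ethanol mean. It read -2.07, -5.69, -2.46, -2.70 and -2.41 in control mice and -5.28, -6.38, -6.38, -3.04 and -5.15 in ethanol mice. Control mouse 2 was as low as the ethanol mice and ethanol mouse 4 nearly as high as the control mice, so that the 5 lowest values were those of the 5 mice of slide 3. Ethanol mice 2 and 3 were at the floor, so the fitted difference of -2.18 ± 0.79 (unadjusted p = 0.0197 and adjusted p = 0.335 by limma) depends on it, and it was -0.57 under normexp. Within slide 3 it was -0.11 and within slide 1 -0.48. Beyond these, the reverse probe at chr17:29183003-29217681 and the forward probe at chr3:79075801-79076428 also had control mouse 2 lowest of its group, at -6.38 and -6.01, with differences of -1.10 ± 0.68 and -0.78 ± 0.68. Both also passed the rule through control arrays alone, so the rule bears on these differences. Both changed sign, to 0.42 and 0.94 with slide as a fixed block, 0.79 and 1.05 within slide 3, and 0.52 and 0.51 with the column as a covariate. Within column 3 both stayed negative, at -0.28 and -1.08. The forward probe at chr15:92197603-92208534 was instead low in ethanol mouse 1, at -4.44, and differed by -0.30 ± 0.69, but by 0.72 within slide 3.

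At the edge of the detection rule, the dimmest members were the reverse probes at chr1:171402829-171403289, chr11:103186833-103187056, chrX:121032646-121038407 and chr10:120116843-120182671. All 4 passed through ethanol arrays alone, so their lower control means, between -5.79 and -5.66 against ethanol means between -4.80 and -4.60, follow from the rule. The 4 brightest that just missed it had control means between -4.54 and -4.34 and ethanol means between -4.48 and -3.92. They included the forward probes at chr15:38205154-38206196 and chr1:63168439-63172297.

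For the wider class, 56 named lncRNA genes were listed from general knowledge, of which 43 had a probe named here and 38 were kept. None of the 38 had an adjusted p under 0.05 by limma, 5 (13.2%) were higher and 1 (2.63%) lower at an unadjusted p under 0.05, against 8.57% and 4.28% of all probes. The ethanol mean was higher in 24 (63.2%) and lower in 14, near the 61.2% higher of all probes. Their median difference was 0.08, against 0.05 over all 31110 probes.

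The 5 higher ones at that threshold were Hottip, Rmrp, Terc, Crnde and Jpx. Rmrp, the RNA of a mitochondrial and nucleolar RNA-processing ribonuclease, read 0.29, 0.33, 0.71, 0.42 and 0.28 in control mice and 0.83, 0.75, 0.98, 0.56 and 0.58 in ethanol mice. Control mouse 3 lay among the ethanol mice, and the difference was 0.33 ± 0.12. Hottip, transcribed from the end of the HoxA cluster, differed by 0.55 ± 0.18 but by 0.08 within slide 3. Terc, the RNA template of telomerase, differed by 0.55 ± 0.21, and by 0.48 within slide 3. Crnde differed by 0.61 ± 0.25 and Jpx, an activator of Xist, by 0.30 ± 0.13, and within slide 3 they were at -0.12 and -0.02. Dnm3os, the host transcript of microRNAs expressed in mesenchymal cells, was the lower one, at -0.68 ± 0.25. Its signals were dim, from -4.56 to -4.0 in control mice and from -5.74 to -4.32 in ethanol mice, and the groups overlapped. H19, an imprinted lncRNA of fetal liver, varied from -5.12 to 1.64 in control mice and from -6.15 to -1.76 in ethanol mice, and its difference of -1.73 ± 1.30 was smaller than the spread of either group. Neat1, the scaffold of nuclear paraspeckles, differed by 0.18 ± 0.28.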

How the data were processed

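Per the file headers, the scans were read by Agilent Feature Extraction 10.7.3.1, the array design refers to mouse build mm9, and the processed intensity that the authors deposited is background-subtracted. The authors also deposited a table of log2 values. With each probe centred on its mean, they correlated with the processed intensity scaled to the 75th percentile (r of 1 for all arrays, over 12307 bright probes). Sizes were not identical. With the deposited values the members' median difference was 0.15 in place of 0.16, and the dim reverse probe at chr10:84010161-84016083 differed by -2.72 in place of -2.18. Column medians of that table ran from -0.12 to 0.08, and the value on which probes were centred stays unknown. The detection flags are the scanner software's, per the file headers.

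For the present comparison control and outlier spots were omitted, each array was divided by its 75th percentile, and log2 was taken after raising signals under 4 units to 4. limma 3.58.1 in R 4.3.3 compared the groups over all 31110 kept probes with Benjamini-Hochberg adjustment and no covariate. The fit was tested on simulated data. The members, lists and the rule for named probes (smallest p among non-overlapping groups, brightest, both strands kept, most variable, nearest the detection limit) were chosen with earlier results of these data known. At positions with several probes on a strand, the brightest probe of each strand entered the strand pairs. Positions are those in the probe names. Nearest genes and probe sequences were not analysed here. The number of arrays limits the precision. No 2 arrays were alike (smallest root mean square difference of 0.33).

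Alternatives were other scalings, background correction, floors and filters, the deposited values, slide or column terms, a replicate block, variance models, probe averaging and leaving out each mouse. The same-numbered mice of the groups had correlations of 0.20, 0.05, 0.26, 0.05 and -0.17 in their deviations from the group means, so the numbers were not taken as pairs.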

Additional observations from a re-analysis of the deposited data

Results flagged for a closer look

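The 61 members named above or beside them were searched for a mouse far from the other 4 of its group (gap over range above Dixon's 95% critical value of 0.71), and 12 of 122 groups had one; chance gives about 1 in 20 groups. Control mouse 2 stood apart at chr8:108153471-108159346 forward (-1.12), at the dimmer forward probe of chr1:95871175-95886625 (-2.69) and at chr10:84010161-84016083 reverse (-5.69). Control mouse 3 did so at chr14:33923944-34003394 forward (3.83) and at a forward probe of chr8:72663625-72673010 (0.77). Ethanol mouse 1 was low at chr9:118291593-118324230 forward (-3.92). Ethanol mouse 3 was high at chr5:35975265-35982561 forward (2.63) and low at chr13:76326228-76332632 forward (-0.99). Ethanol mouse 4 was the low one at chr14:55433382-55452757 forward (1.91), chr11:103186833-103187056 reverse (-5.83), chr10:120116843-120182671 reverse (-5.72) and chr8:105742425-105852975 forward (-6.38). It was the only ethanol mouse on slide 1.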

How the results depend on the processing

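No alternative gave a member with an adjusted p under 0.05 in either direction by limma. At an unadjusted p under 0.05, the count of higher members ran from 189 to 576 when 1 mouse was left out, against 338. That of lower ones ran from 19 to 40, against 27. As shares these were 0.933% to 1.96% of the members, and 3.22% to 5.40% of the other probes were lower. The highest count of higher members came without control mouse 2 (28.3%, others 11.6%) and the lowest without control mouse 1 (9.28%, others 5.13%). With no filter, 369 of 4450 probes (8.29%, against 6.18% of the other probes) were higher and 34 (0.764%, against 2.83%) lower. Higher and lower members numbered 453 and 37 with slide as a random block (22.2% and 1.82%, other probes 10.4% and 5.22%). They numbered 99 and 24 with slide as a fixed block (4.86% and 1.18%, others 4.16% and 2.38%). Counts within slide 1, slide 3 or column 3 are left out, as each of those fits had 1 mouse in 1 group. With the column as a covariate the members numbered 53 and 25 (2.60% and 1.23%, others 3.46% and 2.16%). Without column 4 they were 68 and 26 (3.34% and 1.28%, others 3.50% and 2.32%), and on columns 2 and 3 51 and 26 (2.50% and 1.28%, others 3.46% and 2.04%). Under normexp they were 226 and 25 (11.1% and 1.23%, others 7.12% and 4.22%), and under median scaling 197 and 58 (9.68% and 2.85%, others 3.62% and 7.93%). Array weights gave 529 and 41 (26.0% and 2.01%, others 12.2% and 6.14%). The replicate block, whose numbers do not pair the mice, gave 0 members past an adjusted p of 0.05. It gave 370 higher and 43 lower (18.2% and 2.11%, others 8.30% and 5.79%). In the normexp alternative the deposited median signals took the place of mean signals.

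Among the named probes with an unadjusted p under 0.05, 10 changed sign under an alternative. Within slide 3 the difference became -0.15 at chr14:33923944-34003394 reverse, -0.054 at chr1:95871175-95886625 forward, -0.11 at chr10:120116843-120182671 reverse and -0.29 at chr9:118291593-118324230 reverse. With slide as a fixed block the last 2 were -0.035 and -0.0083. Within slide 1, chr11:103186833-103187056 reverse was -0.0073. Within column 3, added after seeing the data, chr18:35967933-35986564 reverse was -0.019, chr7:134595900-134610975 reverse -0.12, chrX:98673447-98673874 forward -0.27 and chr17:9898206-9919226 reverse -0.19. With columns 2 and 3 alone, chrX:72966144-73011019 reverse was -0.027. Of probes with a larger p, chr8:105742425-105852975 forward, with a bound of 1.24-fold, was -0.65 within slide 1 and -0.0085 with slide as a fixed block. The fits within a slide or column hold fewer mice, the fixed block all 10, and the cause was not tested. Signals near the floor limit the dim members.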
